A study of Danio rerio with 8 samples.

Results

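Translation initiation factors are the proteins that bring a messenger RNA, the initiator tRNA and the ribosomal subunits together. Their genes in zebrafish carry symbols that begin with eif. The genes described here are those of the probe sets annotated with exactly 1 gene symbol that starts with eif and a digit. That rule took 65 of 75212 probe sets on the array, which stand for 59 symbols. Each symbol was represented by its brightest probe set, and 58 of the 59 were bright enough to test among 13774 genes. The exception was eif4e1b, an oocyte-type cap binding protein, whose log2 values lay between 3.77 and 4.33 on the 8 arrays. Of the 65 probe sets, 4 lay below the brightness limit, and 4 further probe sets that share an eif symbol with another gene were not used. The rule used symbols only and no measured value.

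The RNA came from kidneys, the blood-forming organ of adult fish, dissected 60 days after fertilisation. The tested fish were a double knockout of miR-142-3p, labelled 142ab-/-, a microRNA known for its expression across blood cells, and they were set against wild-type fish. Sorting gave a fraction labelled myelomonocytes, a name for granulocytes and monocytes together, and whole kidney marrow from which erythrocytes were left out. Knockout myelomonocytes, wild-type myelomonocytes, knockout whole kidney marrow and wild-type whole kidney marrow were each represented by 2 biological replicates, each pooled from 4 kidneys and run on 1 array, so p-values measure only the spread between pools. The marrow samples include myelomonocytes, and the kind of mutation and the number of founder lines were not stated in the labels. No probe set was named for either miR-142 gene, so the genotype labels were not checked on the arrays.

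As background, initiation begins when eIF2, carrying GTP and the initiator tRNA, joins the small ribosomal subunit together with eIF1, eIF1A, eIF3 and eIF5. The cap of the mRNA is bound by eIF4E, which the scaffold eIF4G links to the helicase eIF4A, while 4E-BP proteins compete with eIF4G for eIF4E. Stress kinases phosphorylate eIF2 and so block its exchange factor eIF2B, which lowers general protein synthesis and favours a few stress-response mRNAs. The arrays measured transcripts only, not the proteins, their phosphorylation or translation.

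All values are deposited log2 intensities, in which a difference of 1 is a 2-fold change, and differences are given ± the standard error of the fit. Correlations lay between 0.988 and 0.992 for arrays of 1 group and between 0.907 and 0.974 for arrays from 2 groups, over the genes tested. The summed linear level of 10 neutrophil markers lay between 56636 and 57869 in the 4 myelomonocyte arrays and between 43641 and 47615 in the 4 whole kidney marrow arrays, and that of 9 tested B cell markers and 1 dim one between 2502 and 3441, against 6919 to 9885. Markers of monocytes and macrophages went against that part of the label: the summed level of 10 monocyte and macrophage markers lay between 8294 and 11395 in the 4 myelomonocyte arrays, against 19092 to 20973 in the 4 whole kidney marrow arrays. One of them, mpeg1.1, is also in the neutrophil list. Summed levels of 21 kidney tubule and podocyte markers were 11094 to 14846 in myelomonocytes, against 6636 to 9661 in whole kidney marrow. Although erythrocytes were left out of the marrow, summed levels of 15 erythroid markers were 52912 to 68104 there, against 21105 to 37215 in myelomonocytes. The source of this signal was not tested. In such bulk samples, fewer cells of a type and less RNA per cell cannot be told apart. Several genes come in pairs of copies, such as eif3ea and eif3eb or eif2s1a and eif2s1b. Any probes that both copies share would make their separate values uncertain.

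Few initiation factor transcripts differed between knockout and wild-type myelomonocytes. Of the 58 genes, 3 were higher and 1 was lower in knockout than in wild-type myelomonocytes at an adjusted p under 0.05 (limma, Benjamini-Hochberg over all genes tested). That was 6.90% of the initiation factor genes, against 12.4% of all genes tested (6.85% higher and 5.51% lower). The genes that rose were eif4a3, eif4ebp3l and eif4eb, and the gene that fell was eif2s1b. The median log2 difference of the 58 genes was -0.02, against 0.01 for all genes. An unadjusted p under 0.05 was found for 9 of the 58, against 3754 of all 13774 genes. Both knockout arrays lay above both wild-type arrays for 13 genes and below them for 20, against 28.2% and 26.6% of all genes.

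Markers of other cells moved in the same comparison. In knockout myelomonocytes, 10 of 15 erythroid markers, 4 of 21 cell division genes and 2 of 10 monocyte and macrophage markers were lower than in wild-type myelomonocytes, and 6 of 21 kidney tubule and podocyte markers were higher. Of all genes, 5.51% were lower and 6.85% higher. Median differences of these 4 marker lists were -0.70, -0.48, -0.45 and 0.17. Summed levels of the monocyte and macrophage markers were 10235 and 8294 in knockout myelomonocytes, against 11395 and 11285 in wild-type myelomonocytes. Those of the cell division genes were 7673 and 8040 in the knockout, against 10998 and 10225 in the wild type, and those of the kidney markers 12179 and 14846, against 11094 and 12653, with overlap for the last. No marker of these 4 lists was dim on all arrays. Calls in other marker lists went both ways. Of 12 stem and progenitor markers, 2 were higher and 3 lower, and of 12 T and NK cell markers 2 and 1. Of 9 B cell and of 7 thrombocyte markers, 1 was higher and 1 lower in each list. Of 10 endothelial markers 1 was lower, and no neutrophil marker was called. The part of all these markers in the initiation factor calls was not tested.

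eif4a3 encodes the helicase of the exon junction complex, which is laid on mRNA after splicing and marks transcripts for nonsense-mediated decay. Its level was 10.38 and 10.28 in knockout myelomonocytes, against 9.77 and 9.72 in wild-type myelomonocytes. Both knockout arrays were above both wild-type arrays, and the difference of 0.59 ± 0.10 passed the test (adjusted p = 0.00791). For whole kidney marrow the levels were 10.27 and 10.34 in the knockout, against 10.14 and 10.03 in the wild type, a difference of 0.22 ± 0.10 that did not pass (adjusted p = 0.202).

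eif4ebp3l encodes a 4E-BP, a repressor that binds eIF4E and keeps eIF4G away from the cap. It read 10.56 and 10.47 in knockout myelomonocytes, against 9.81 and 10.03 in wild-type myelomonocytes, with no overlap. The rise of 0.60 ± 0.13 was 1.51-fold (adjusted p = 0.0217). Whole kidney marrow read 10.80 and 10.88 in the knockout, against 10.69 and 10.98 in the wild type, where the groups overlapped and the difference was 0.00 ± 0.13.

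eif4eb is a copy of the cap binding protein eIF4E itself. Its values were 9.11 and 9.11 in knockout myelomonocytes, against 8.70 and 8.63 in wild-type myelomonocytes, a rise of 0.44 ± 0.10 or 1.36-fold (adjusted p = 0.0233). The knockout arrays again lay above the wild-type arrays. Its paralog eif4ea differed by -0.05 between the genotypes in the same cells. For eif4eb, whole kidney marrow read 9.29 and 9.46 in the knockout, against 9.13 and 9.11 in the wild type. That difference of 0.26 had the same direction and no overlap but did not pass.

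The only gene that fell was eif2s1b, 1 of a pair of genes for the alpha subunit of eIF2, the subunit that the stress kinases phosphorylate. It read 10.14 and 10.19 in knockout myelomonocytes, against 10.65 and 10.54 in wild-type myelomonocytes, a fall by 0.43 on the log2 scale with a standard error of 0.10 (adjusted p = 0.0264). In whole kidney marrow it read 10.97 and 11.07 in the knockout, against 11.30 and 11.40 in the wild type. The difference there was -0.33 ± 0.10 (adjusted p = 0.0789), and it passed with trended robust eBayes (adjusted p = 0.0225). The other copy, eif2s1a, went the other way in myelomonocytes without passing, averaging 8.87 ± 0.19 in the knockout, against 8.56 ± 0.05 in the wild type (SD, n = 2 arrays each, adjusted p = 0.152).

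These calls rested on few arrays. The count was lower without any 1 of the knockout or wild-type myelomonocyte arrays, and so was the count over all genes. The share of eif genes called stayed below that of all genes. The calls of eif4eb and eif2s1b were lost without any 1 of these arrays, with adjusted p up to 0.125 and 0.146, that of eif4ebp3l without either knockout array or wild-type replicate 1 (up to 0.124), and that of eif4a3 only without wild-type replicate 2 (0.0549).

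The other 54 genes differed by -0.45 to 0.31 between the genotypes in myelomonocytes. The 95% interval of the difference lay within 2-fold for all 58 genes and within 1.5-fold for 49 of them. Of 16 eIF3 subunits, which form the large scaffold on the small ribosomal subunit, none was called. Their median was -0.13, and 14 had a negative difference, against 6705 of all 13774 genes. Under quantile normalization 12 of the 16 did, with a median of -0.10. The lowest of the 16 was eif3jb, a loosely bound subunit, at 8.34 and 8.76 in knockout myelomonocytes, against 9.04 and 8.97 in wild-type myelomonocytes (-0.45 ± 0.14, adjusted p = 0.0809).

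**Figure D1:**
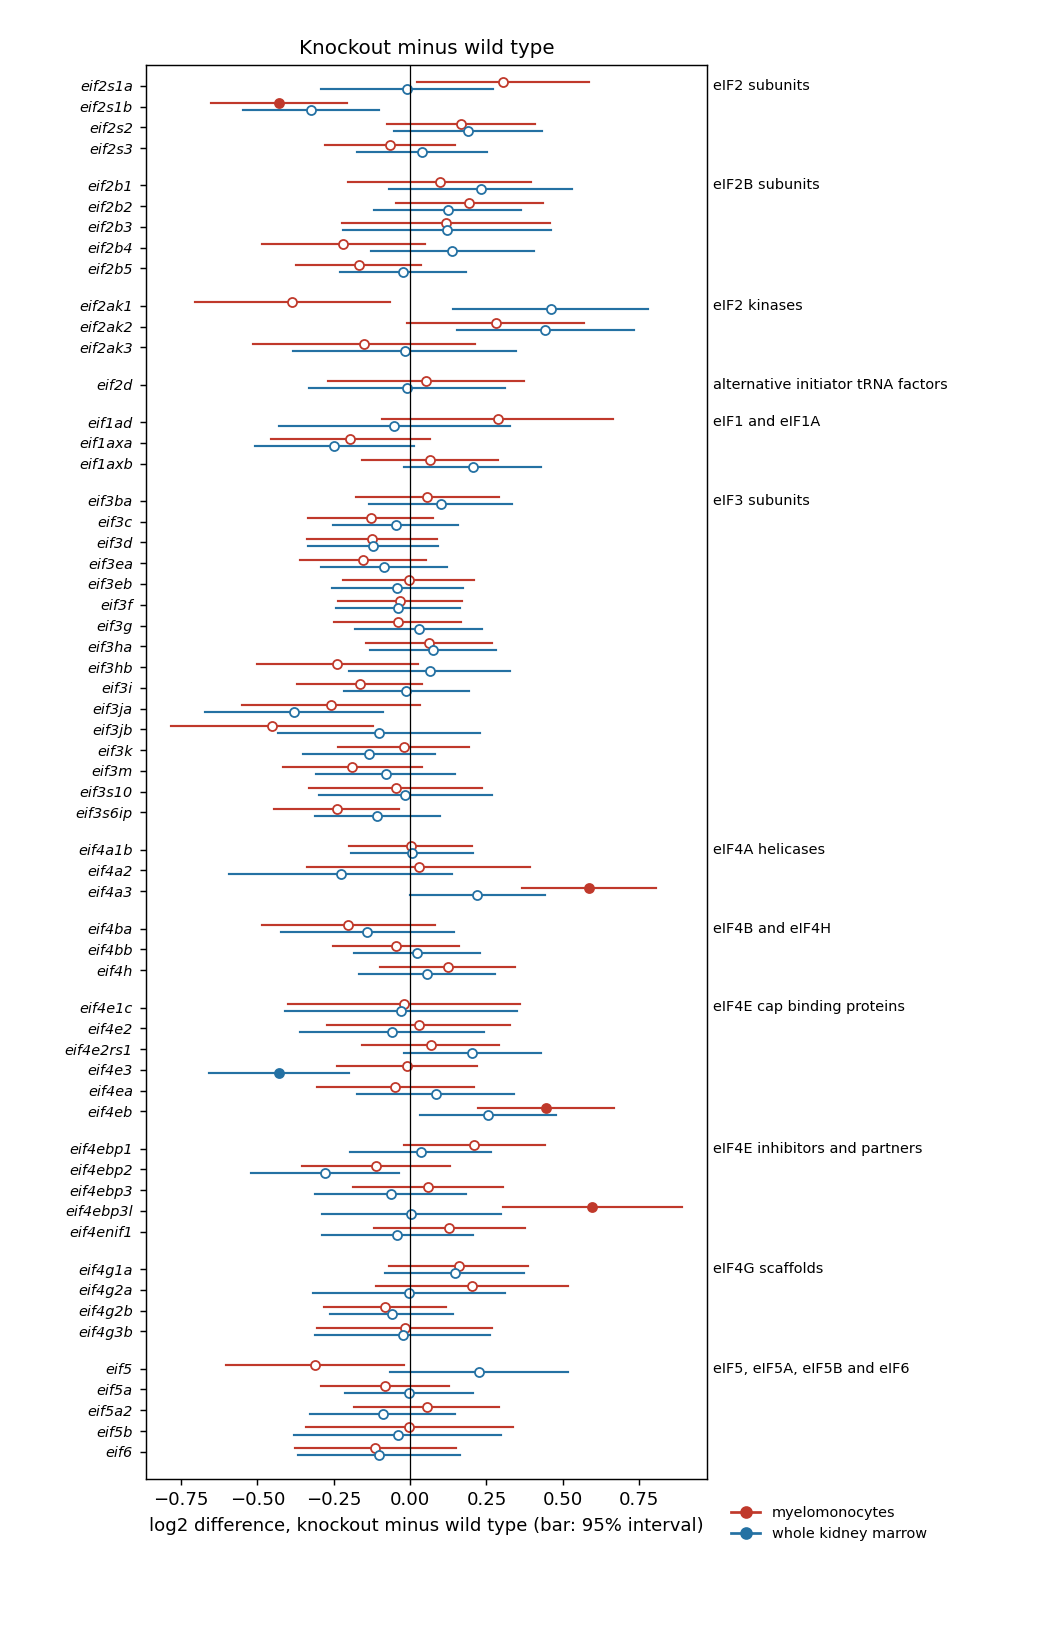
Log2 difference of knockout minus wild type for each of the 58 tested genes, grouped by role, in myelomonocytes (red) and whole kidney marrow (blue). Bars are 95% intervals, filled points passed an adjusted p of 0.05 and open points did not. The filled points are eif4a3, eif4ebp3l, eif4eb and eif2s1b in myelomonocytes and eif4e3 in whole kidney marrow.

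In whole kidney marrow, 1 of the 58 genes passed the test between knockout and wild type, or 1.72%, against 9.28% of all genes tested (4.73% higher and 4.55% lower). This was eif4e3, an eIF4E relative that in mammals binds the cap in an atypical way. It read 8.72 and 8.67 in knockout whole kidney marrow, against 9.04 and 9.22 in wild-type whole kidney marrow, and fell by 0.43 on the log2 scale with a standard error of 0.10 (adjusted p = 0.0355). In myelomonocytes it read 8.88 and 8.82 in the knockout, against 8.84 and 8.88 in the wild type, with overlapping groups. The call of eif4e3 was lost without any 1 of the 4 whole kidney marrow arrays (adjusted p up to 0.181), and also under quantile normalization, median centring, without the brightness filter and with only these 4 arrays fitted.

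The other 57 genes differed by -0.38 to 0.46 in whole kidney marrow. The median over the 58 was -0.01, against 0.01 for all genes, and the 95% interval lay within 1.5-fold for 53. An unadjusted p under 0.05 was found for 7, against 3407 of all 13774 genes. Both knockout arrays lay above both wild-type arrays for 15 genes and below them for 14, against 28.1% and 28.5% of all genes. The genes with the smallest p after eif4e3 were eif2ak2, eif2s1b and eif2ak1, none of which passed. Among cell markers, 3 of 12 for T and NK cells were lower and 1 higher, and of 7 for thrombocytes 1 went each way. Of 10 monocyte and macrophage and of 21 kidney markers, 2 were lower in each list. Of 9 B cell and of 12 stem and progenitor markers, 1 was lower in each list. No neutrophil, endothelial or cell division marker was called. Of all genes, 4.55% were lower and 4.73% higher. The part of these markers was not tested.

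Among the eIF2 kinases, eif2ak1 is the haem-regulated kinase, known for its role in red cell precursors. It read 8.47 and 8.43 in knockout myelomonocytes, against 8.71 and 8.96 in wild-type myelomonocytes (-0.39 ± 0.14, adjusted p = 0.116). Its whole kidney marrow values were 9.98 and 10.28 in the knockout, against 9.57 and 9.77 in the wild type (0.46 ± 0.14, adjusted p = 0.0828). The knockout arrays thus lay below the wild-type arrays in myelomonocytes and above them in whole kidney marrow, with neither difference called, although the one in whole kidney marrow passed with the replicate block (adjusted p = 0.0413) and with trended robust eBayes (adjusted p = 0.0422). Of 15 erythroid markers measured beside it, 10 were lower in knockout myelomonocytes, against 5.51% of all genes. In knockout whole kidney marrow 1 was lower, against 4.55% of all genes, while 13 of 15 had a positive difference (median 0.21). The difference between both differences was negative for all 15, and 2 were called lower, against 0.145% of all genes. The summed linear level of these markers was 21105 and 22423 in knockout myelomonocytes, against 31885 and 37215 in wild-type myelomonocytes. It was 59739 and 68104 in knockout whole kidney marrow, against 52912 and 59803 in wild-type whole kidney marrow, and these groups overlapped. No erythroid marker was dim on all arrays, and their part in the eif2ak1 values was not tested.

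eif2ak2 encodes the kinase activated by double-stranded RNA. It read 8.64 and 8.53 in knockout myelomonocytes, against 8.26 and 8.35 in wild-type myelomonocytes (0.28 ± 0.13, adjusted p = 0.199). In whole kidney marrow it read 8.90 and 9.22 in the knockout, against 8.57 and 8.67 in the wild type (0.44 ± 0.13, adjusted p = 0.0682), a difference that passed under quantile normalization (adjusted p = 0.0473) and with trended robust eBayes (adjusted p = 0.0423). The knockout arrays were above the wild-type arrays in both populations. eif2ak3, the kinase of the endoplasmic reticulum stress response, read 7.83 and 7.41 in knockout myelomonocytes, against 7.86 and 7.68 in wild-type myelomonocytes, and 8.08 and 8.03 in knockout whole kidney marrow, against 8.20 and 7.94 in wild-type whole kidney marrow, with differences of -0.15 ± 0.16 and -0.02 ± 0.16.

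**Figure D2:**
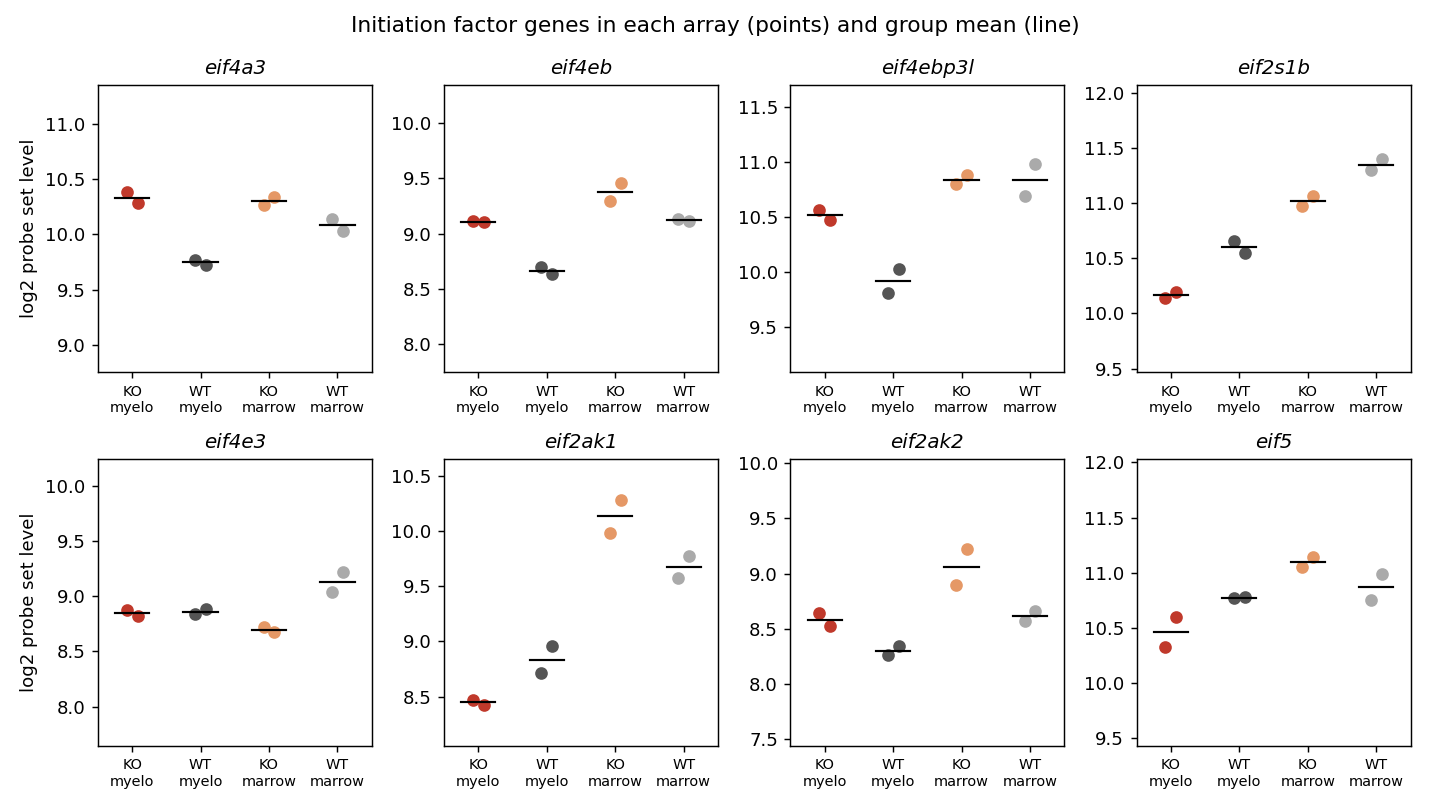
Log2 level of 8 initiation factor genes (1 panel each) in every array, with points for the 2 arrays and a line for the mean of knockout and wild-type myelomonocytes and of knockout and wild-type whole kidney marrow. The vertical axes span the same range around different levels and do not start at 0. eif4a3, eif4eb and eif4ebp3l sit higher in knockout than in wild-type myelomonocytes and eif2s1b sits lower, while the knockout points of eif2ak1 lie below the wild type in myelomonocytes and above it in whole kidney marrow.

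The other 4E-BPs and eIF4E partners did not pass between the genotypes. eif4ebp1 read 9.19 and 9.07 in knockout myelomonocytes, against 8.91 and 8.93 in wild-type myelomonocytes (0.21 ± 0.10, adjusted p = 0.224). eif4ebp2 differed by -0.11 ± 0.10 in myelomonocytes and by -0.28 ± 0.10 in whole kidney marrow (adjusted p = 0.144). The difference of eif4ebp2 in whole kidney marrow passed with trended robust eBayes (adjusted p = 0.0384). eif4ebp3 differed by 0.06 and -0.06, and eif4enif1, the transporter that carries eIF4E into the nucleus in mammals, by 0.13 and -0.04.

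Whether the effect of the knockout differed between the cell populations was tested as the difference between both differences. No initiation factor gene passed (0 of 58, against 0.276% of all genes tested). An unadjusted p under 0.05 was found for 5, against 1924 of all 13774 genes. The lowest adjusted p was 0.137. That was eif2ak1, at -0.84 ± 0.20. The next were eif4ebp3l at 0.59 ± 0.18 (adjusted p = 0.21), eif5, which triggers GTP hydrolysis by eIF2, at -0.54 ± 0.18 (adjusted p = 0.242), and eif4e3 at 0.42 ± 0.14 (adjusted p = 0.249). The calls in 1 population and not in the other are therefore not shown to differ between the populations.

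The comparison of cell populations gave more differences, almost all in 1 direction. In the knockout, 26 of the 58 genes were lower and 2 higher in myelomonocytes than in whole kidney marrow (48.3% called, against 44.1% of all genes, of which 22.6% were lower and 21.5% higher). In the wild type, 26 were lower and none higher by limma (44.8% called, against 35.6% of all genes, of which 20.1% were lower and 15.5% higher). At an unadjusted p under 0.05 there were 34 in either direction, against 6410 of all 13774 genes. Lower calls made up 26 of 28 in the knockout and 26 of 26 in the wild type, against 3109 of 6076 and 2766 of 4900 over all genes. Under quantile normalization the calls over all genes in the wild type turned from 2134 higher and 2766 lower to 3039 higher and 2182 lower, while those of the eif genes were 0 higher and 18 lower.

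The median log2 difference of the 58 genes was -0.30 in the knockout, against 0.03 for all genes, and -0.31 in the wild type, against 0.00 for all genes. A negative difference was found for 48 genes in the knockout and for 50 in the wild type, against 6518 and 6865 of all 13774 genes. Both myelomonocyte arrays lay below both whole kidney marrow arrays for 45 genes in the knockout (77.6%, against 35.2% of all genes) and for 43 in the wild type (74.1%, against 37.1%). The reverse held for 7 and 3 genes, against 38.1% and 36.3% of all genes. The 2 genotypes share no array in this comparison, but both were tested in the same fit with a shared residual variance per gene. Of the genes called lower, 17 were the same in both, which is 65.4% of each set of 26. The overlap over all genes was not computed, so this share has no background beside it.

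**Figure D3:**
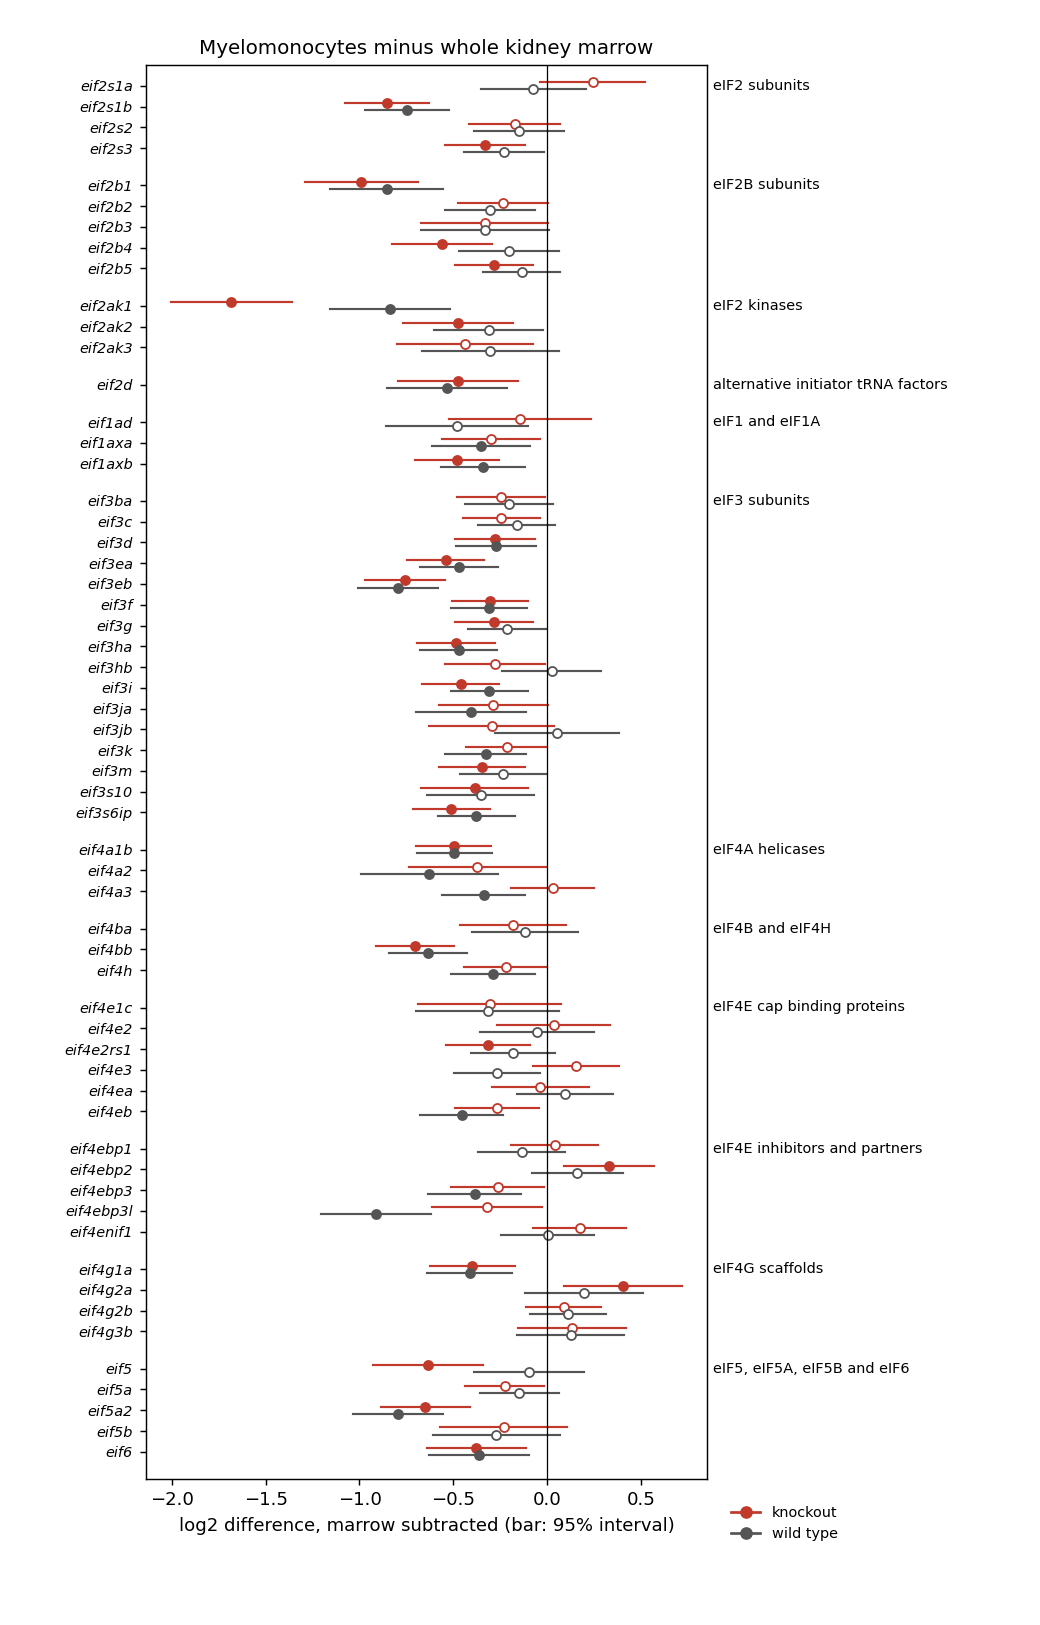
Log2 difference of myelomonocytes minus whole kidney marrow for each of the 58 tested genes, grouped by role, in the knockout (red) and the wild type (grey). Bars are 95% intervals, filled points passed an adjusted p of 0.05 and open points did not. Most points of every role but the eIF4G scaffolds and the eIF4E inhibitors lie left of 0, and eif2ak1 in the knockout lies farthest left.

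Leaving out any 1 array lowered these counts, and lowered those over all genes too. In the knockout the share of eif genes called was then below that of all genes, whichever array was left out. In the wild type it was near that of all genes. Nearly all eif calls that remained were of lower levels in myelomonocytes. The genes called without any 1 array were 14 in the knockout and 10 in the wild type. eif2ak1, eif2b1, eif2s1b, eif3ea, eif3eb, eif3ha, eif4a1b, eif4bb and eif5a2 were among them in both genotypes.

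The eIF3 subunits made up the largest group. In the knockout, 10 of 16 were lower in myelomonocytes (62.5%, against 22.6% of all genes). All 16 had negative differences there, from -0.76 to -0.22. In the wild type, 9 of 16 were lower (56.25%, against 20.1% of all genes). There 14 had negative differences, from -0.80 to 0.05 over the 16. The medians were -0.30 and -0.31.

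eif3eb, a copy of the eIF3e subunit, had the largest of these differences. It read 6.36 and 6.30 in knockout myelomonocytes, against 7.02 and 7.16 in knockout whole kidney marrow, and 6.33 and 6.34 in wild-type myelomonocytes, against 7.14 and 7.13 in wild-type whole kidney marrow. The differences were -0.76 ± 0.09 in the knockout and -0.80 ± 0.09 in the wild type (adjusted p = 5.12e-04 and 6.59e-04). Its paralog eif3ea read 10.96 and 10.90 in knockout myelomonocytes, against 11.46 and 11.48 in knockout whole kidney marrow (-0.54 ± 0.09, adjusted p = 0.00200), and 11.05 and 11.12 in wild-type myelomonocytes, against 11.52 and 11.59 in wild-type whole kidney marrow (-0.47 ± 0.09, adjusted p = 0.00537). Both copies fell in both genotypes, with no overlap between the populations.

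eif3s6ip, which encodes the eIF3l subunit, read 11.04 and 11.04 in knockout myelomonocytes, against 11.55 and 11.55 in knockout whole kidney marrow (-0.51 ± 0.09, adjusted p = 0.00255). Wild-type myelomonocytes read 11.24 and 11.32, against 11.63 and 11.69 in wild-type whole kidney marrow (-0.38 ± 0.09, adjusted p = 0.0132), a call lost without myelomonocyte replicate 1 or whole kidney marrow replicate 2 (adjusted p up to 0.0783). eif3ha, of the eIF3h subunit, fell by 0.49 in the knockout and by 0.47 in the wild type on the log2 scale (adjusted p = 0.00327 and 0.0053). eif3d, eif3f and eif3i were also lower in both genotypes, but calls of eif3d and eif3f were lost without any 1 array, and that of eif3i was lost so in the wild type (adjusted p up to 0.143). eif3hb and eif3jb were the exceptions in the wild type, at 0.02 and 0.05, and neither passed in the knockout.

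Among genes of the ternary complex, eif2s1b was lower in both genotypes. It read 10.14 and 10.19 in knockout myelomonocytes, against 10.97 and 11.07 in knockout whole kidney marrow, a 1.81-fold fall (-0.85 ± 0.10, adjusted p = 3.66e-04). In the wild type it read 10.65 and 10.54 in myelomonocytes, against 11.30 and 11.40 in whole kidney marrow, a 1.68-fold fall (-0.75 ± 0.10, adjusted p = 9.85e-04). Its copy eif2s1a differed by 0.24 and -0.07 and passed in neither. eif2s3, of the gamma subunit that binds GTP and the initiator tRNA, passed in the knockout (-0.33 ± 0.09, adjusted p = 0.0199) and not in the wild type (-0.23 ± 0.09), and its call was lost without any 1 array. eif2d, a factor that can deliver initiator tRNA without GTP, fell by 0.47 in the knockout and by 0.54 in the wild type on the log2 scale. Both calls were lost under quantile normalization. With arrays left out in turn, the knockout call was lost for 2 of 4 and the wild-type call for 3 of 4.

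All 5 subunits of eIF2B, the exchange factor that recharges eIF2 with GTP, had negative differences in both genotypes. Of these, 3 passed in the knockout (60%, against 22.6% of all genes called lower). In the wild type 1 passed, and its share of 20% was near the 20.1% of all genes. eif2b1 read 7.67 and 7.30 in knockout myelomonocytes, against 8.53 and 8.41 in knockout whole kidney marrow, a 1.99-fold fall (-0.99 ± 0.13, adjusted p = 6.98e-04). Wild-type myelomonocytes read 7.40 and 7.37, against 8.27 and 8.22 in wild-type whole kidney marrow (-0.86 ± 0.13, adjusted p = 0.00196). The other bright probe set of eif2b1 did not show this, with differences of -0.19 in the knockout and 0.35 in the wild type (adjusted p = 0.332 and 0.110). The other probe set of eif2b5, called lower in the knockout at -0.28 ± 0.09 by its brightest probe set, differed by -0.0043 there. eif2b4 fell by 0.56 in the knockout (adjusted p = 0.00563).

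The 3 genes of eIF1 and eIF1A had negative differences in both genotypes. eIF1A helps the small subunit to scan for the start codon. Of the 3, 1 was called lower in the knockout and 2 in the wild type, against 22.6% and 20.1% of all genes. eif1ad passed in neither (-0.14 and -0.48). eif1axb was called in both genotypes (-0.48 ± 0.10, adjusted p = 0.00486 in the knockout, and -0.34 ± 0.10, adjusted p = 0.0270 in the wild type), and eif1axa in the wild type alone (-0.35 ± 0.11, adjusted p = 0.0413). Both wild-type calls were lost without any 1 array (adjusted p up to 0.129 and 0.219).

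All 3 eIF2 kinases had negative differences in both genotypes. eif2ak1 showed the largest difference of the 58 genes in the knockout, where it read 8.47 and 8.43 in myelomonocytes, against 9.98 and 10.28 in whole kidney marrow. The fall was 3.21-fold (-1.68 ± 0.14, adjusted p = 1.10e-04). The wild type had 8.71 and 8.96 in myelomonocytes, against 9.57 and 9.77 in whole kidney marrow, a 1.79-fold fall (-0.84 ± 0.14, adjusted p = 0.00293). All 15 erythroid markers were lower in knockout myelomonocytes and 12 of 15 in wild-type myelomonocytes, against 22.6% and 20.1% of all genes. Their median differences were -1.73 and -0.82, and their part in the eif2ak1 result was not tested.

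eif2ak2 read 8.64 and 8.53 in knockout myelomonocytes, against 8.90 and 9.22 in knockout whole kidney marrow (-0.48 ± 0.13, adjusted p = 0.0166). That call was lost without myelomonocyte replicate 2 or whole kidney marrow replicate 2 (adjusted p up to 0.109), and the wild-type difference was -0.31 ± 0.13 (adjusted p = 0.0871). eif2ak3 differed by -0.44 ± 0.16 and -0.30 ± 0.16 and did not pass (adjusted p = 0.0537 and 0.166). The difference in the knockout passed under median centring (adjusted p = 0.0483), with the replicate block (0.0166), with trended robust eBayes (0.0444) and without myelomonocyte replicate 1 (0.0137).

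Of the factors that act at the cap, the 3 eIF4A helicases were all lower in wild-type myelomonocytes, and eif4a1b alone was lower in the knockout. Of all genes, 20.1% were lower in the wild type and 22.6% in the knockout. eif4a1b, a cytoplasmic helicase of the cap complex, read 11.26 and 11.29 in knockout myelomonocytes, against 11.79 and 11.76 in knockout whole kidney marrow (-0.50 ± 0.09, adjusted p = 0.00255). It read 11.28 and 11.27 in wild-type myelomonocytes, against 11.75 and 11.79 in wild-type whole kidney marrow (adjusted p = 0.00381). Between the genotypes it differed by 0.00 in myelomonocytes and by 0.01 in whole kidney marrow. eif4a3 differed by -0.34 ± 0.10 in the wild type (adjusted p = 0.0274, lost without any 1 array), and by 0.03 ± 0.10 in the knockout. The difference between both was not called.

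eif4bb, a copy of eIF4B that stimulates the helicase, read 9.82 and 9.88 in knockout myelomonocytes, against 10.54 and 10.57 in knockout whole kidney marrow (-0.71 ± 0.09, adjusted p = 5.99e-04). It read 9.92 and 9.87 in wild-type myelomonocytes, against 10.50 and 10.56 in wild-type whole kidney marrow (-0.64 ± 0.09, adjusted p = 0.00142). These were falls of 1.63-fold and 1.55-fold. eif4ba, the other copy, differed by -0.18 and -0.12 and did not pass.

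Calls among the cap binding proteins were near the share of all genes. Of 6 tested, eif4e2rs1 alone was lower in the knockout (-0.32 ± 0.10, adjusted p = 0.0296) and eif4eb alone in the wild type. That was 16.7% in each genotype, against 22.6% and 20.1% of all genes. Both bright probe sets of eif4e1c passed in neither genotype and differed in direction in the wild type, at -0.32 and 0.14. eif4eb read 8.70 and 8.63 in wild-type myelomonocytes, against 9.13 and 9.11 in wild-type whole kidney marrow (-0.46 ± 0.10, adjusted p = 0.00859), and 9.11 and 9.11 in knockout myelomonocytes, against 9.29 and 9.46 in knockout whole kidney marrow (-0.27 ± 0.10, adjusted p = 0.0538). The call of eif4eb was lost without wild-type myelomonocyte replicate 2 (adjusted p = 0.056), and that of eif4e2rs1 without myelomonocyte replicate 2 or either whole kidney marrow array (up to 0.131).

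The eIF4E inhibitors were divided. eif4ebp3l read 9.81 and 10.03 in wild-type myelomonocytes, against 10.69 and 10.98 in wild-type whole kidney marrow, a 1.88-fold fall (-0.91 ± 0.13, adjusted p = 0.00135). It read 10.56 and 10.47 in knockout myelomonocytes, against 10.80 and 10.88 in knockout whole kidney marrow, and did not pass (-0.32 ± 0.13, adjusted p = 0.0726), although it did under quantile normalization (adjusted p = 0.0458) and with trended robust eBayes (adjusted p = 0.0334). eif4ebp3 was lower in the wild type (-0.39 ± 0.11, adjusted p = 0.0246), a call lost without either myelomonocyte array or whole kidney marrow replicate 2, or under quantile normalization (up to 0.141).

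eif4ebp2 was 1 of only 2 of the 58 genes called higher in myelomonocytes. It read 12.01 and 11.82 in knockout myelomonocytes, against 11.64 and 11.53 in knockout whole kidney marrow (0.33 ± 0.10, adjusted p = 0.0351), and differed by 0.16 in the wild type (adjusted p = 0.261). The other was eif4g2a, a relative of the eIF4G scaffold that lacks the eIF4E binding part in mammals. It read 10.91 and 10.98 in knockout myelomonocytes, against 10.60 and 10.49 in knockout whole kidney marrow (0.40 ± 0.14, adjusted p = 0.0438). Neither was firm: eif4g2a lost its call without any 1 array (up to 0.185) and eif4ebp2 without myelomonocyte replicate 1 or either whole kidney marrow array (up to 0.168). Both calls were also lost without the brightness filter, that of eif4g2a under quantile normalization and array weights, and that of eif4ebp2 under median centring and with only the 4 arrays fitted. eif4ebp1 and eif4enif1 differed by 0.04 and 0.17 in the knockout and by -0.14 and 0.00 in the wild type, with no call.

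The scaffolds also differed among themselves. eif4g1a, which joins eIF4E, eIF4A and eIF3, was lower in both genotypes (-0.40 ± 0.10, adjusted p = 0.0121 in the knockout, and -0.41 ± 0.10, adjusted p = 0.0139 in the wild type). Its calls were lost without 2 arrays of the knockout and 3 of the wild type when these were left out in turn (adjusted p up to 0.0800 and 0.0798). The other 3 scaffold genes had positive differences in both genotypes.

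Among late factors, eif5a2, which carries hypusine and helps ribosomes through difficult peptide bonds, read 8.70 and 8.67 in knockout myelomonocytes, against 9.31 and 9.36 in knockout whole kidney marrow (-0.65 ± 0.10, adjusted p = 0.00163). Wild-type myelomonocytes read 8.72 and 8.54, against 9.48 and 9.37 in wild-type whole kidney marrow (-0.79 ± 0.10, adjusted p = 9.96e-04). eif5 was lower in the knockout (-0.64 ± 0.13, adjusted p = 0.00474), with -0.10 in the wild type. eif6, which keeps the ribosomal subunits apart, was lower in both genotypes at -0.38 ± 0.11 and -0.37 ± 0.11, but these calls were lost without 3 of the 4 knockout arrays and without any 1 wild-type array. All 5 genes of this role had negative differences in both genotypes.

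Other markers moved with the populations too. Of 21 cell division genes, 20 were lower in knockout myelomonocytes and 12 in wild-type myelomonocytes than in whole kidney marrow. Their summed linear level was 7673 and 8040 in knockout myelomonocytes, against 14741 and 18156 in knockout whole kidney marrow, and 10998 and 10225 in wild-type myelomonocytes, against 16480 and 15465 in wild-type whole kidney marrow. Of 10 monocyte and macrophage markers, 8 were lower in knockout myelomonocytes and 5 in wild-type myelomonocytes, and 1 was higher in each. Their median differences were -1.06 and -0.90. Of 12 stem and progenitor markers, 8 and 10 were lower, and 2 and 1 higher. Of 9 B cell markers, 8 and 9 were lower, and 1 was higher in the knockout. Of 12 T and NK cell markers, 11 and 12 were lower and none higher. Of 7 thrombocyte markers, 3 were lower and 1 higher in each genotype. Of all genes, 22.6% and 20.1% were lower and 21.5% and 15.5% higher. Some lists had more markers higher than lower. Of 21 kidney tubule and podocyte markers, 15 were higher in knockout and 2 in wild-type myelomonocytes, and 1 was lower in each. Of 10 endothelial markers, 3 and 4 were higher and none lower. Of 10 neutrophil markers, 7 and 6 were higher and 1 lower in each genotype. The part of these cells and of dividing cells in the initiation factor result was not tested.

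Genes that work beside the initiation factors also included many that were lower in myelomonocytes, and no difference in share between the lists was tested. Of 18 initiation cofactors without an eif symbol, 6 were lower and 1 higher in the knockout and 7 lower and 2 higher in the wild type (38.9% and 50% called, against 44.1% and 35.6% of all genes). The lowest of these was pabpc1b, a poly(A) binding protein that contacts eIF4G, at -1.54 ± 0.16 in the knockout and -1.09 ± 0.16 in the wild type (adjusted p = 2.82e-04 and 0.00185). pdcd4a, an inhibitor of eIF4A, differed by -0.74 ± 0.12 and -0.89 ± 0.12 (adjusted p = 0.00166 and 0.00107). Both calls of each gene were made without any 1 array as well.

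Of 16 elongation and termination factors, 8 were lower in the knockout, 7 in the wild type, and no call was in the other direction (50% and 43.8% called). Of all genes, 44.1% were called in the knockout and 35.6% in the wild type, with 22.6% and 20.1% called lower. eef1b2, an exchange factor for elongation, differed by -0.41 ± 0.09 in the knockout and by -0.51 ± 0.09 in the wild type (adjusted p = 0.00776 and 0.00418). Of 18 cytosolic tRNA synthetases, which load tRNAs with amino acids, 12 were lower in the knockout and 7 in the wild type. None was called higher, so the shares called were 66.7% and 38.9%, the latter near the 35.6% of all genes. lars1b, a leucine enzyme, differed by -0.99 ± 0.13 and -1.08 ± 0.13 (adjusted p = 8.17e-04 and 8.32e-04). Of 9 mitochondrial translation factors, 3 and 4 were lower and 1 was higher in each genotype (44.4% and 55.6% called), with mrrf, which recycles mitochondrial ribosomes, at -0.73 ± 0.11 and -0.96 ± 0.11. Without any 1 array the counts fell for elongation in both genotypes and for the synthetases in the wild type, as did those over all genes. The synthetase count in the knockout went both ways.

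Calls among the regulators upstream and downstream of eIF4E and eIF2 went both ways. Of 28 genes of mTORC1 and MNK signalling, 8 were lower and 5 higher in knockout myelomonocytes, and 7 lower and 3 higher in wild-type myelomonocytes. The shares called, 46.4% and 35.7%, were near those of all genes, 44.1% and 35.6%. sesn1, an inhibitor of mTORC1, differed by -1.37 ± 0.18 and -1.88 ± 0.18, while its relative sesn3 differed by 0.90 ± 0.13 and by 1.00 ± 0.13 (adjusted p = 7.18e-04, 3.05e-04, 0.00101 and 9.95e-04). Of 24 genes of the integrated stress response, 7 were lower and 4 higher in the knockout, and 4 lower and 7 higher in the wild type (45.8% called in each).

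**Figure D4:**
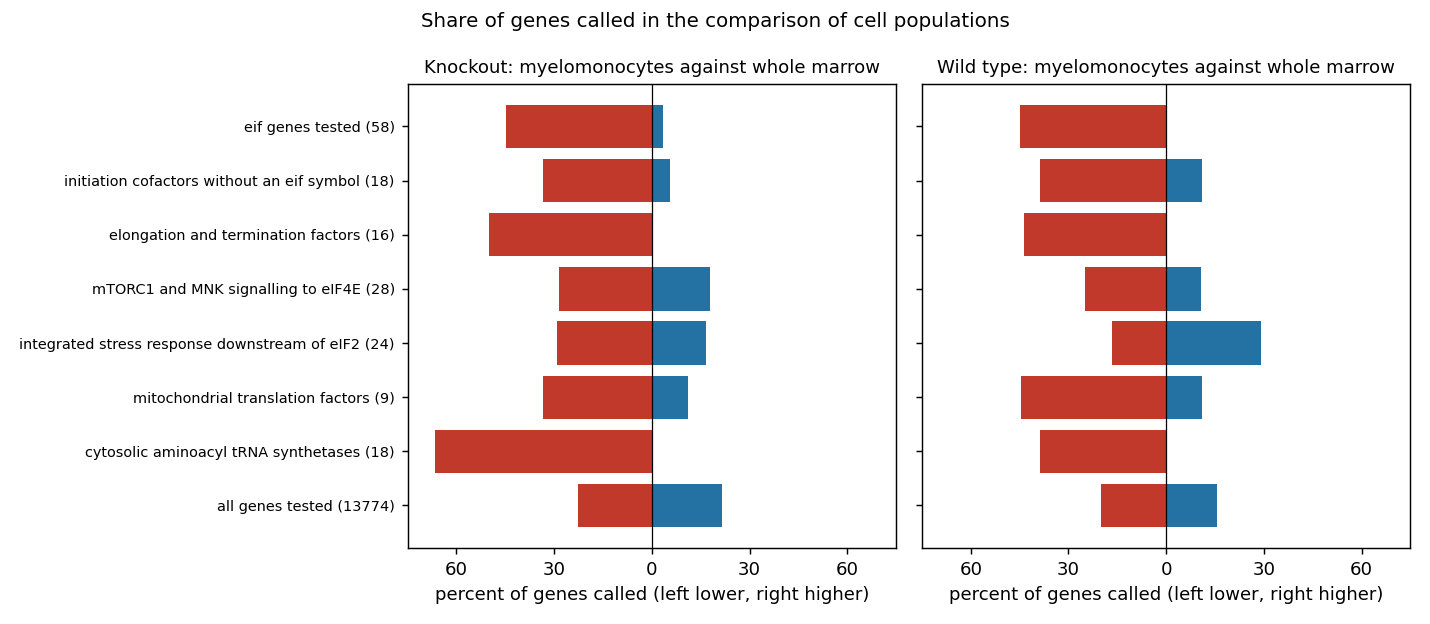
Percent of tested genes called lower (left of 0, red) or higher (right of 0, blue) in myelomonocytes than in whole kidney marrow, for the eif genes, 6 lists of related genes and all genes tested, in the knockout (left panel) and the wild type (right panel). Numbers in brackets count the genes tested. The bars of the eif genes, the elongation and termination factors and the tRNA synthetases lie almost wholly on the left, whereas those of all genes are nearer to even.

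Between the genotypes, 12.4% of all genes were called in myelomonocytes and 9.28% in whole kidney marrow. In myelomonocytes, 2 of 18 cofactors (11.1%) fell in the knockout, pdcd4b by 0.53 and pabpc1b by 0.69 on the log2 scale (adjusted p = 0.0171 and 0.0315). In whole kidney marrow 1 of 18 (5.56%) fell, pdcd4a by 0.48 (adjusted p = 0.0428), a call lost without any 1 array (up to 0.208). Of 28 genes of mTORC1 and MNK signalling, 2 rose and 3 fell in knockout myelomonocytes (17.9%), and 3 rose in knockout whole kidney marrow (10.7%). eef1db, of the elongation factor exchange complex, was higher in the knockout in both populations, at 0.79 ± 0.11 in myelomonocytes and 0.69 ± 0.11 in whole kidney marrow (adjusted p = 0.00448 and 0.0101), and akt1s1, an mTORC1 inhibitor, likewise at 0.90 ± 0.14 and 0.74 ± 0.14 (adjusted p = 0.0067 and 0.0177). Of the stress response genes, 1 rose and 1 fell in knockout myelomonocytes (8.33%) and 4 rose in knockout whole kidney marrow (16.7%). atf5b, a transcription factor translated preferentially when eIF2 is phosphorylated, rose by 1.13 ± 0.14 and 0.72 ± 0.14 (adjusted p = 0.00271 and 0.0185). Of the tRNA synthetases, 2 rose in knockout myelomonocytes (11.1%) and 4 in knockout whole kidney marrow (22.2%), among them mars1 at 0.57 ± 0.11 and 0.59 ± 0.11 (adjusted p = 0.0127 and 0.0145).

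For eef1db, akt1s1 and atf5b the calls in myelomonocytes were made without any 1 array, while those in whole kidney marrow were lost without 3 of 4 arrays (adjusted p up to 0.0673, 0.0962 and 0.114). The calls of mars1 were lost without either wild-type myelomonocyte array and without 3 of 4 whole kidney marrow arrays. The other synthetases called in whole kidney marrow, nars1, rars1 and tars1, lost these calls without any 1 array. The call of pdcd4b was lost without 3 of 4 arrays, and that of pabpc1b without any 1 (up to 0.148).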

How the data were processed

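RNA of 8 samples was measured on 1-colour Affymetrix whole-transcript arrays, from 200 ng of total RNA per the labels' protocols. The authors deposited log2 intensities, 1 for each probe set on each array; the log2 scale was inferred from their range. How background, probe summary and normalization were handled, and any batch, is not stated by the labels. Gene names came from the platform's annotation: 20806 had 1 symbol, 855 several and 53551 none, and 20323 matched the RefSeq gene table of assembly GRCz12tu by Entrez ID, which updated 1 symbol. The brightest probe set per symbol was tested where its mean was at least 5.52, the 50th percentile of all probe sets (13774 genes, 5486 left out).

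limma 3.58.1 in R 4.3.3 fitted all 8 arrays with a mean per group, leaving 4 residual and 4.00 prior degrees of freedom. All tests are two-sided, with adjustment by Benjamini-Hochberg over all genes tested, and genes were called at an adjusted p under 0.05. The fit was also run on simulated independent values with the fit's own variances and 200 genes changed in knockout myelomonocytes. Such data cannot test the normalization or the calls in the real arrays. Standard errors of the initiation factor genes were 0.0869 to 0.165, and the number of arrays limits the precision. Given array by array are up to 8 called genes per direction and comparison with the smallest adjusted p, or the 4 with the smallest p where fewer were called; eIF2 kinases and eIF4E partners are always named. Alternatives were quantile normalization, median centring, no brightness filter, averaged or separate probe sets, only the 4 arrays compared, a replicate block, array weights, trended robust eBayes and leaving out each array. The members and lists were chosen with earlier results of these data known.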

Additional observations from a re-analysis of the deposited data

Results flagged for a closer look

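The test of the difference between the genotype differences was passed by some cell markers. These were 2 of 15 erythroid markers (lower), 1 of 9 B cell markers (higher) and 1 of 12 stem and progenitor markers (lower). Of all genes tested, 0.276% passed. Among the initiation factor genes and the lists of genes that work with them, psat1 alone passed. It encodes a serine synthesis enzyme and stands in the list of the integrated stress response downstream of eIF2. Its log2 difference between the genotypes was larger in whole kidney marrow (2.45 ± 0.17, adjusted p = 3.02e-04) than in myelomonocytes, and the difference between both was -1.94 ± 0.23 (limma, adjusted p = 0.0286). The call of that difference was lost without any 1 of the 4 myelomonocyte arrays or of the wild-type whole kidney marrow arrays (adjusted p up to 0.119).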

How the results depend on the processing

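Between knockout and wild-type myelomonocytes, 4 initiation factor genes were called, and fewer without any 1 array. With only the 4 arrays compared 2 were called, and with trended robust eBayes 6, of which 3 were higher and 3 lower. In whole kidney marrow 1 was called, 0 under median centring, without the brightness filter, with only the 4 arrays compared and without any 1 array, 2 with the replicate block and 5 with trended robust eBayes. Quantile normalization gave 1 there too, but eif2ak2 in place of eif4e3. The difference between the differences gave 0 under every alternative. For myelomonocytes against whole kidney marrow the counts of 28 in the knockout and 26 in the wild type became 15 to 19 and 12 to 14 without 1 array, and 20 to 35 and 18 to 31 under the other alternatives. Without 1 array the group left with a lone sample was assumed to vary like the others. The labels do not say that same-numbered samples belong together, and 2 numbers cannot settle it: deviations of same-numbered samples correlated between -1.89e-04 and 0.405, highest between the populations of 1 genotype (0.267 in the knockout and 0.405 in the wild type), and the replicate block gave 4, 2, 0, 31 and 27 calls in the 5 comparisons. Of the values of single genes, 1239 of 1328 kept direction and side of the threshold under the alternatives that kept all samples of a comparison, 74 calls were lost, 11 were gained and 4 changed sign; without 1 array these were 493 of 716, 207, 1 and 15. The sign changes were of values that were not called. Under quantile normalization the differences in whole kidney marrow of eif2ak3, eif4ebp3 and eif4enif1 became 0.035, 0.0076 and 0.0032, and under median centring that of eif2ak3 became 0.011. Without 1 array, differences in whole kidney marrow ranged over -0.15 to 0.11 for eif2ak3, -0.17 to 0.045 for eif4ebp3, -0.11 to 0.029 for eif4enif1, -0.036 to 0.10 for eif4ebp1 and -0.14 to 0.15 for eif4ebp3l. For eif2ak3 the difference in myelomonocytes ranged over -0.36 to 0.060 and the difference between differences over -0.35 to 0.078, and between populations that of eif4ebp1 in the knockout ranged over -0.032 to 0.11 and that of eif4enif1 in the wild type over -0.070 to 0.072. The cause of these changes was not tested. The median over the 58 genes in whole kidney marrow was -0.01, and 0.03 under quantile normalization, so no direction is given for it. With 2 arrays a group, the smallest called difference of an initiation factor gene was -0.28 on the log2 scale.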
